A study of Mus musculus with 289 samples.

Results

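The genes described here encode the proteins of the cytosolic ribosome. They were taken by name: rows whose symbol is Rpl or Rps followed by a digit, or Rplp0, Rplp1, Rplp2 or Rpsa. Of the 18523 gene rows present in all 5 count tables, 89 were members. Of these, 77 stood for 1 ribosomal protein each, 46 of the large and 31 of the small subunit. A further 4 were paralogues of such genes (Rpl22l1, Rpl7l1, Rpl36al and Rps27l). Another 7 were retrogene copies (Rps27rt, Rps4l, Rpl32l, Rpl37rt, Rpl6l, Rps3a2 and Rps3a3), and 6 members were annotated as pseudogenes though not named so. The remaining member, Rps19bp1, binds a ribosomal protein and is not one. The rule left out 289 names ending in -ps, 10 Rps6k kinase names and 4 genes absent from at least 1 table (Rpl10l, Rpl39l, Rpl3l and Rps12l1).

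The ribosome makes all cellular protein, and each core protein is present in about equal copy number, so their mRNAs are abundant and tend to move together. Most of these mRNAs begin with a run of pyrimidines, the 5′ terminal oligopyrimidine (TOP) motif, through which mTORC1 signalling and the repressor Larp1 control their translation. Several members also act outside the ribosome: Rpl5 and Rpl11 bind Mdm2 when ribosome assembly fails, and Rps6 is the subunit phosphorylated by the S6 kinases. In astrocytes, ribosomal protein mRNAs are also found in the fine processes.

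Because the TOP motif is what the family is known for, the start windows of members that the results below turn on are shown first. RefSeq promoters (GRCm38.p6) were matched by symbol for 65 of the 89 members, of which 56 had 1 listed start and 9 had more. Each window holds 30 bases on the coding strand, 12 before the annotated start and 18 from it on. Capitals mark a C followed by at least 4 pyrimidines that begins within 5 bases of the annotated start, and a window without capitals holds no such run there.
Rps6, chr4:86857350-86857379, minus strand: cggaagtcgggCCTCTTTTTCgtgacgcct
Rps27, chr3:90213631-90213660, minus strand: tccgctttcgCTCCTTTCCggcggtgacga
Rps27l, chr9:66946074-66946103, plus strand: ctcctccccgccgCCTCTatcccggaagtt
Rpl22l1, chr3:28805496-28805525, plus strand: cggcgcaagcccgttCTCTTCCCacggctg
Rplp0, chr5:115559455-115559484, plus strand: ttcgggtttcgaggaccgcctggttctcct
Rpl5, chr5:107900516-107900545, plus strand: cacgtcgcttgcgtgctggtggtgctacat
Rpl11, chr4:136053376-136053405, minus strand: acccataaggccacggggccggaagtctcc
Rpsa, chr9:120127754-120127783, plus strand: ggttatttaaggacgtcatttccggccgcc

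Rps6 and Rps27 carried runs of 10 and 9 bases at the start, and the paralogues Rps27l and Rpl22l1 carried runs of 5 and 8. Rps27l has another listed start, not shown, whose window held no such run. Rpl22, the partner of Rpl22l1, held none at either of its listed starts. Rplp0, Rpl5, Rpl11 and Rpsa held none within 5 bases of their annotated start. Among the matched members, 31 (47.7%) held the run within 5 bases of a start on the coding strand, against 21.2% of the 27025 symbols in the promoter table. Exactly at the annotated start the shares were 23.1% and 3.01%. Within 15 bases they were 69.2% and 44.9%. An annotated start a few bases away from the true one moves a run in or out of the window, so a missing run says only that these letters are not in this window.

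The libraries were single cells drawn through an electrophysiology pipette from mouse cerebral cortex and sequenced by Smart-seq2, which copies polyadenylated RNA over its full length. The mice were adult transgenic animals expressing Cas9, and they received Mok-LV, an astrocyte-specific lentivirus that delivers guide RNAs against Sox9, Trps1 or both, transcription factors of which Sox9 is an astrocyte nuclear marker. Counts were available for 254 of 289 labelled samples, 242 astrocytes and 12 in-slice controls, labelled as holding no cell. The labels name no animal, no promoter and no guide sequence, so all cells with the same guide, day and batch were treated as 1 pool. No difference between pools therefore has a test. The spread given is that between cells, and exact intervals cover counting error only.

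Batch 1 held 31 no-gRNA cells, labelled adult with no day, 10 g-Control cells and 4 g-Sox9+Trps1 cells. Its injected cells carry a different day in nearly every label, so no day was used. Batch 2 held 8 g-Control cells from day 7, 7 from day 21 and 8 g-Sox9+Trps1 cells from day 21. Batch 3 held 6 no-gRNA cells, 21 g-Sox9 cells and 14 g-Sox9+Trps1 cells from day 7. Batch 4 held 15 g-Control, 16 g-Sox9 and 13 g-Sox9+Trps1 cells from day 21, and 15 g-Trps1 cells from day 7. Batch 5 held 23 no-gRNA cells, and 21 g-Sox9 and 30 g-Trps1 cells from day 21. The labels do not say whether the no-gRNA mice were injected, so injection, the virus and the guide cannot be told apart in comparisons with them. No comparison crosses batches. Of 7167 pairs of libraries within a batch, 2 pairs held nearly the same counts: 1 pair of g-Trps1 cells of batch 4 (Pearson r of log2 CPM over genes 0.993) and 1 pair of no-gRNA cells of batch 5 (r = 0.989), where no other pair passed 0.649. Their chi-square per degree of freedom was 3.23 and 1.72, above sampling noise but far below the 72.7 to 208 of the most alike other pair in each batch. Each pair may be 1 cell counted under a pair of labels. Counts of cells below include both, and the results that rest on them are also given with the pair counted once, as its mean.

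Astrocytes had 15959 to 4656612 reads in genes, with a median of 1.09e+06. All 18 astrocyte markers had reads in each of the 16 astrocyte pools, with summed levels between 8798 and 46626 CPM (counts scaled to a total of 1e+06 reads in genes). In the in-slice pools 9 to 17 of the 18 had reads, at 1937 to 11026 CPM. Reads of the targeted genes do not check the edit, because a transcript with a small deletion still counts. Sox9 stood at 177 CPM in g-Control, 189 in g-Sox9 and 133 in g-Sox9+Trps1 cells of batch 4 at day 21. In batch 5 it stood at 309 CPM in no-gRNA, 233 in g-Sox9 and 664 in g-Trps1 cells. Trps1 stood at 91.9 CPM in no-gRNA and 57.6 in g-Trps1 cells of batch 5. A g-Sox9 or g-Trps1 pool below is therefore a pool so labelled.

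Most members were abundant, and the order of their levels was led by the P stalk. Per kilobase of exon and averaged over the 16 astrocyte pools, Rplp1, an acidic stalk protein that recruits elongation factors, stood highest at 1319 CPM per kb. It was read in 231 of 242 astrocytes (95.5%). Rplp0, the stalk's base, followed at 561 CPM per kb, then Rpl32 at 534, Rps27 at 522 and Rpl4 at 502. Ranges over pools were wide and overlapped: 135 to 4062 CPM per kb for Rplp1 and 62.0 to 1416 for Rplp0. These neighbours in the order therefore do not differ beyond the spread over pools.

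The 5 lowest members per kilobase were Rps3a2 at 0.926, Rpl6l at 2.08, Rpl24 at 2.39, Rps10 at 2.53 and Rpl36al at 3.70 CPM per kb. Rps3a2 and Rpl6l are retrogene copies. Rpl24 and Rps10 each encode the only form of a core protein, yet were read in 74 (30.6%) and 44 (18.2%) of the 242 astrocytes. Both share exon bases with other annotated genes, 47.0% for Rpl24 and 28.7% for Rps10. Rpl13a and Rpl23a, also core and low at 10.3 and 16.2 CPM per kb, share 35.4% and 62.3%. Sharing alone did not order the members: Rpl35 shares 66.2% of its exon bases and stood at 95.3 CPM per kb. Over all 89 members the Spearman rho of shared bases and mean CPM was -0.06. For the 77 core genes, rho between the number of pseudogene names a gene has and its mean CPM was -0.27, and 58 members have at least 1 such name. Whether reads from the copies were set aside by the counting was not tested.

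**Figure D1:**
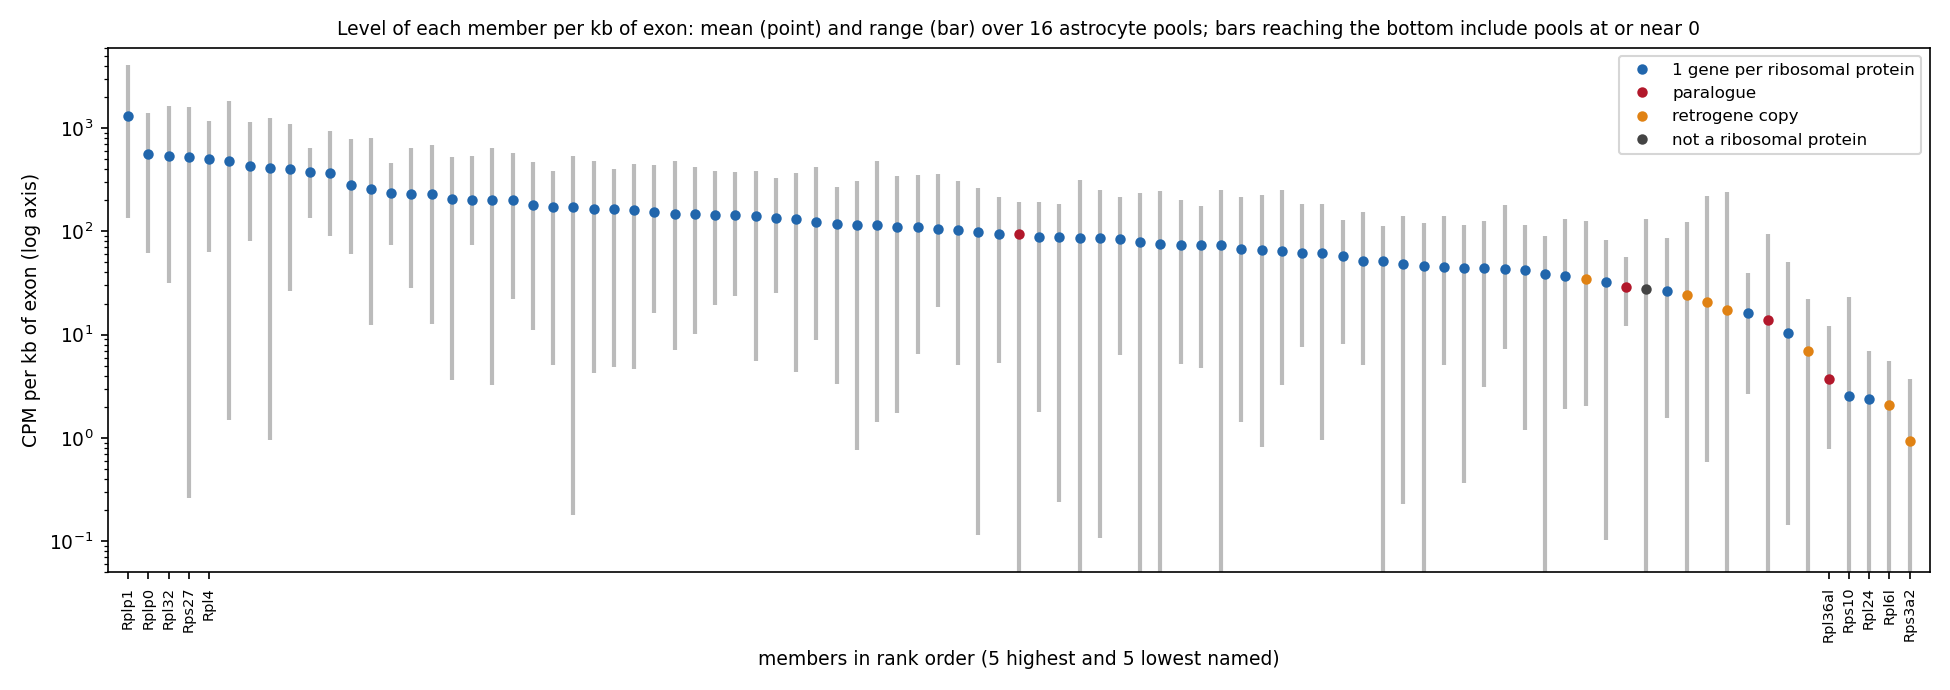
Level of each member per kilobase of exon, CPM per kb on a log axis, with members in rank order and the 5 highest and 5 lowest named; each point is the mean over the 16 astrocyte pools and each bar runs from the lowest to the highest pool. Rplp1 stands highest at 1319 CPM per kb, and Rps3a2 lowest at 0.926.

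Reads on large subunit members, paralogues and retrogene copies included, were 0.991 to 1.46 times those on small subunit members over the 16 astrocyte pools. The order of the members within a pool differed more between batches than within them. Over 31 pairs of pools from the same batch, rho of the members' shares ran from 0.539 to 0.970 with a median of 0.861. Over 159 pairs from different batches it ran from 0.205 to 0.956 with a median of 0.692. In-slice pools are among these pairs, and pools of a batch share their preparation and counting.

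Batch 1 stood apart in which members were read. Rpl21, Rpl27, Rps23, Rps28, Rps29 and Rps6 each took less than 1 in 10 of the share of member reads that they took in the other batches. Rps6 was at most 2.53 CPM in any pool of batch 1 and averaged 190 CPM over the other pools. Rps29 was at most 4.78 CPM in batch 1 and averaged 412 elsewhere. In batch 1, 17.7% of all counts stood in a row for reads with several matches, outside the genes, and their part in these low levels was not tested. Its member reads were led by Rpl4 and Rps3, whose shares in the g-Control pool were 8.91% and 13%. The 10 leading members held 56.2% to 61.2% of member reads in batch 1, against 30.6% to 44.6% in the astrocyte pools of the other batches. Levels of single members are therefore compared only within a batch.

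The summed share of gene reads that fell on members was lowest in the no-gRNA pools and highest in batch 4. It was 0.257% (exact 95% binomial interval 0.255% to 0.259%) in no-gRNA cells of batch 1, 0.715% in those of batch 3 and 0.719% in those of batch 5. In pools that received a guide it ran from 1.33% to 5.35%. Between cells of 1 pool the share varied far more than counting error, with 0.329% in the lowest and 13.4% in the highest g-Trps1 cell of batch 4.

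**Figure D2:**
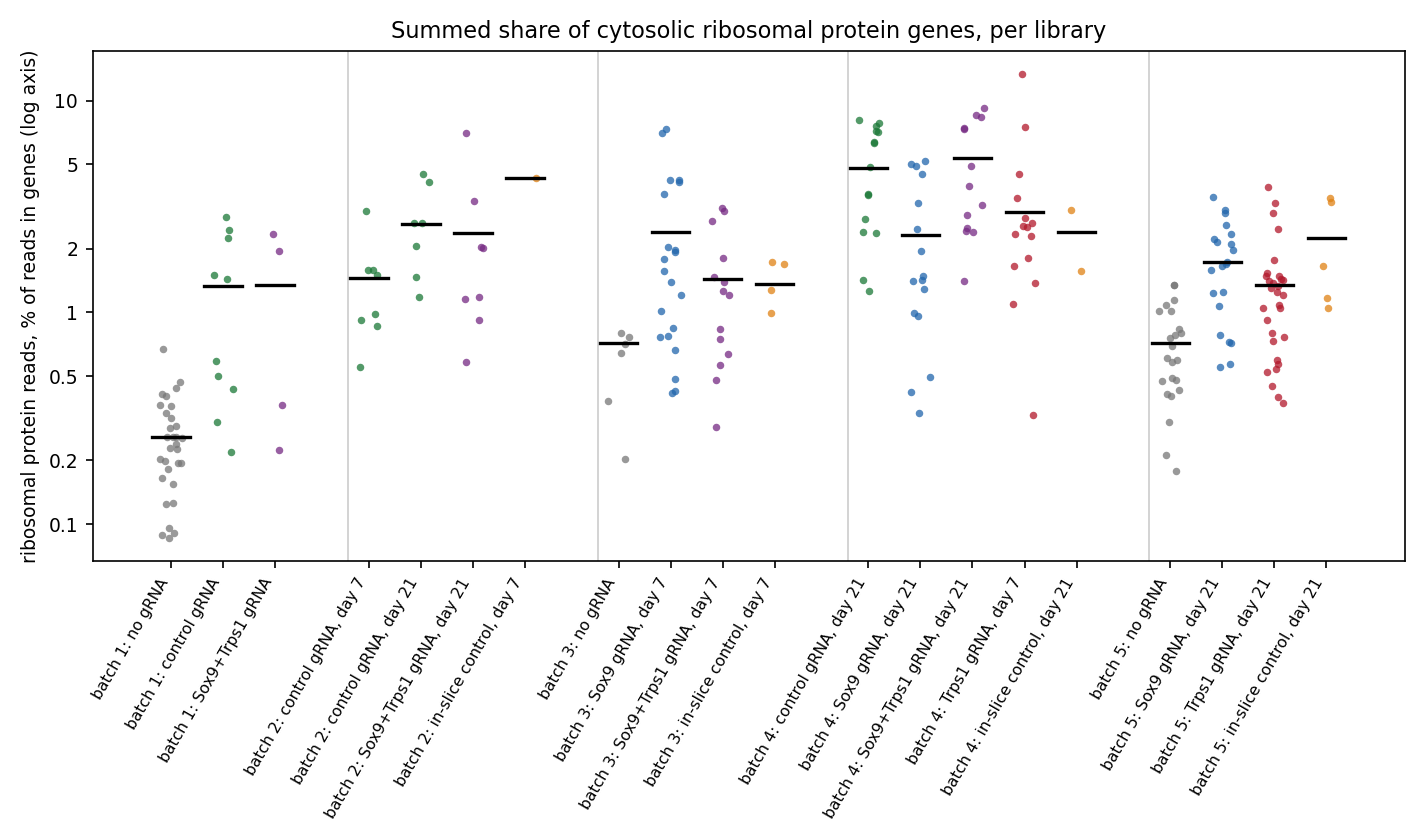
Share of gene reads on the 89 members in each library, in percent on a log axis, by pool; points are cells or in-slice libraries and horizontal marks are the pooled share. No-gRNA pools lie at 0.257%, 0.715% and 0.719%, below every pool with a guide in their batch, while single cells overlap.

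Against cells without a gRNA, the summed member share was higher in each pool that received one, while the count of members past 2-fold stood above that of all genes in some of these pools and near it in others. In batch 5 the share was 0.719% in no-gRNA cells, whose cells ran from 0.179% through a median of 0.606% to 1.34%. The g-Sox9 cells ran from 0.550% through 1.69% to 3.5%, with a pooled share of 1.74%. Of the 21 g-Sox9 cells, 13 lay above every no-gRNA cell and the rest overlapped them. The log2 ratio of the shares was 1.27. A member counts below as higher or lower when its log2 ratio of pooled CPM, with 5 CPM added to each pool, reaches 1 in either direction (2-fold), among genes with 5 CPM or more in the higher pool. By this rule 48 of 81 members were higher in g-Sox9 cells and 0 lower, where 24.3% of all genes at the minimum were higher and 20.5% lower. The median member ratio was 1.16 and that of all genes 0.07. With the near-identical pair of no-gRNA cells counted once, the no-gRNA share was 0.731%, the log2 ratio 1.25 and the count of higher members 46.

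The g-Trps1 cells of batch 5 share that no-gRNA pool. Their share was 1.35%, with cells at 0.374%, 1.23% and 3.88% (lowest, median, highest), and 12 of 30 lay above every no-gRNA cell. The log2 ratio to no-gRNA cells was 0.91. Of 82 members 29 were higher and 0 lower, where 30.3% of all genes were higher and 14.3% lower. At the median, members stood at 0.82 and all genes at 0.41. Set against the median of all genes, 7 members remained past 2-fold upward and 2 were past it downward, so the count of higher members is near that of genes at large. Counting the near-identical pair once gave a log2 ratio of 0.89 and 30 higher members.

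Batch 3 gave such comparisons at day 7 with a shallower reference. Its 6 no-gRNA cells had a median of 236508 reads in genes, and 3 had fewer than 100000. Their shares ran from 0.204% to 0.796% with a median of 0.676%. The g-Sox9 pool stood at 2.39%, with cells from 0.417% through 1.56% to 7.37%, and 15 of 21 lay above every no-gRNA cell. The log2 ratio of shares was 1.74. Of 82 members 60 were higher and 0 lower, but 63.5% of all genes were higher and 13% lower. Members had a median ratio of 2.25 and all genes of 1.43, and relative to the latter 36 members were higher and 13 lower. The g-Sox9+Trps1 pool stood at 1.43% (cells at 0.289%, 1.23% and 3.12%), and its log2 ratio to the same no-gRNA pool was 1.0. There 56 of 83 members were higher and 6 lower, where 60.8% of all genes were higher and 16.8% lower. Both medians were 1.38, so the members moved no further than genes at large.

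In batch 1 the g-Control cells stood at 1.33%, with cells at 0.219%, 1.01% and 2.81%. The no-gRNA cells ran from 0.0862% through 0.238% to 0.674%, and 5 of 10 g-Control cells lay above all of them. The log2 ratio of shares was 2.38. Of 78 members 56 were higher and 5 lower, where 37.2% of all genes were higher and 30.1% lower. The median ratio of members was 1.96, beside 0.26 for all genes. This pool carried a control guide, so the higher share was present without a guide against Sox9 or Trps1.

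These comparisons came from 3 batches with separate references, and 1 from each (g-Control in batch 1, g-Sox9 in batches 3 and 5) can be set side by side without sharing cells. Of 76 members at the minimum in all 3, 62 (81.6%) had a positive log2 ratio in each and 0 a negative one in each. Of 9093 genes at the minimum in all 3, 26.4% were positive in each. Past 2-fold in each were 34 members (44.7%) and 8.80% of genes. Batches 3 and 5 each offer another guide, and the 3 other choices gave 56 to 62 positive members (72.7% to 81.6%) beside 25.3% to 32.1% of genes, and 23 to 32 past 2-fold (29.9% to 42.1%) beside 8.08% to 10.04% of genes. Rplp0 was among the 34, with log2 ratios of 3.16 in batch 1, 2.84 in batch 3 and 2.42 in batch 5. So was Rpl32, a large-subunit protein, at 3.0, 3.77 and 1.80. Rps3, a small-subunit protein with a role in DNA repair, stood at 3.31, 5.08 and 1.58, and Rpl7 at 2.52, 4.27 and 1.72.

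**Figure D3:**
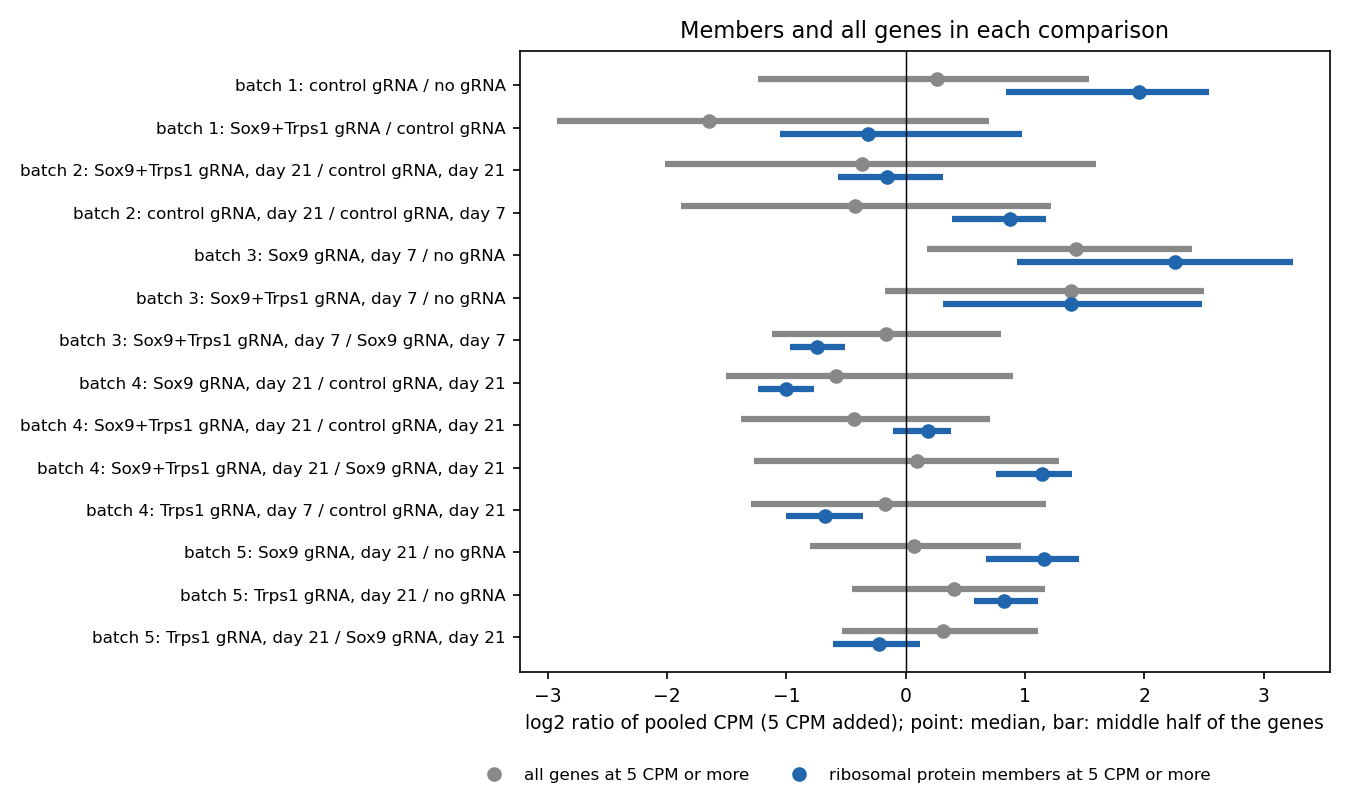
Log2 ratio of pooled CPM (5 CPM added) in each of the 14 comparisons, for members and for all genes at the minimum; points are medians and bars run from the lower to the upper quartile. In batch 1 (g-Control against no gRNA) the member median is 1.96 and that of all genes 0.26, while both are 1.38 for batch 3 g-Sox9+Trps1 cells against no gRNA.

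Against g-Control cells of the same batch and day, g-Sox9 cells had the lower share. In batch 4 at day 21 the g-Control pool stood at 4.80%, with cells from 1.26% through 4.86% to 8.10%. The g-Sox9 pool stood at 2.32%, with cells from 0.335% through 1.46% to 5.17%. The groups overlapped: 5 of 16 g-Sox9 cells lay below every g-Control cell and 7 of 15 g-Control cells lay above every g-Sox9 cell. The log2 ratio of shares was -1.05. Of 84 members 42 were lower and 1 higher, where 40.7% of all genes were lower and 23.2% higher. The median member ratio was -1.0 and that of all genes -0.59, and relative to the latter 7 members were lower. From the lower to the upper quartile members ran from -1.23 to -0.77 and all genes from -1.50 to 0.90.

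The g-Sox9+Trps1 pool of that batch and day did not have the lower share. It stood at 5.35%, with cells from 1.40% through 3.96% to 9.19%, which overlap the g-Control cells. The log2 ratio to g-Control was 0.16. Only 1 of 85 members was higher and 2 were lower, where 19.5% of all genes were higher and 36.9% lower. At the median, members stood at 0.19 and all genes at -0.43. By the median of the cells the share was lower than in g-Control cells, at a log2 ratio of -0.29. Against g-Sox9 cells the log2 ratio of shares was 1.21, with 50 of 85 members higher and 2 lower, where 32.8% of all genes were higher and 31.5% lower. This comparison shares its pools with the preceding ones and is no further evidence.

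In batch 2 the same pair of guides at day 21 gave a share of 2.36% against 2.61% in g-Control cells, a log2 ratio of -0.15. The g-Control cells were at 1.18%, 2.63% and 4.48% and the g-Sox9+Trps1 cells at 0.584%, 1.59% and 7.06% (lowest, median, highest). Of the 8 g-Sox9+Trps1 cells 3 lay below every g-Control cell and 1 above every one, and the rest overlapped them. Of 81 members 3 were higher and 7 lower, where 33.9% of all genes were higher and 41.7% lower. Members had a median ratio of -0.16 and all genes of -0.37. Leaving out 1 cell at a time moved the log2 ratio of shares from -0.68 to 0.05, so its direction depends on single cells. In batch 1 the 4 g-Sox9+Trps1 cells had shares of 0.223%, 0.365%, 1.96% and 2.35%. Pooled they stood at 1.34%, beside 1.33% in g-Control cells, a log2 ratio of 0.01. Of 76 members 18 were higher and 22 lower, where 22.3% of all genes were higher and 63.8% lower. The median ratio of members was -0.32, beside -1.65 for all genes. Leaving out 1 cell at a time moved the log2 ratio of shares from -0.51 to 0.48.

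Between guides, batch 3 at day 7 had the lower share in g-Sox9+Trps1 cells, at a log2 ratio of -0.74 to g-Sox9 cells. Of 82 members 1 was higher and 18 lower, where 21.0% of all genes were higher and 28.4% lower. The median member ratio was -0.75 and that of all genes -0.17. In batch 5 at day 21 the g-Trps1 cells lay 0.36 below the g-Sox9 cells on the log2 scale, with 2 of 82 members higher and 2 lower, where 28.3% of all genes were higher and 15.7% lower. With only the g-Trps1 cells titled 21T3 that ratio was 0.048, so its direction depends on the title series. The median member ratio there was -0.23 and that of all genes 0.31.

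Days could be compared within 1 guide only in batch 2. The g-Control cells of day 7 stood at 1.45%, with cells from 0.553% through 1.24% to 3.02%, and those of day 21 at 2.61%, a log2 ratio of 0.85. Of 80 members 32 were higher at day 21 and 0 lower, where 28.8% of all genes were higher and 43.4% lower. At the median, members stood at 0.88 and all genes at -0.42. Batch 2 also counted added spike-in RNA. Per spike-in read, the member reads were 0.0713 at day 7 and 0.0770 at day 21, a log2 ratio of 0.11, while gene reads per spike-in read were 4.93 and 2.95. The median cell differed from these pooled values: it held 0.0484 member reads per spike-in read at day 7 and 0.122 at day 21, and 4.93 and 4.63 gene reads. Single cells overlapped in member reads on this scale, from 0.0251 to 0.904 at day 7 and from 0.0248 to 0.278 at day 21. Whether member reads per spike-in read were higher at day 21 therefore depends on how the cells are weighted.

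In batch 4 the g-Trps1 cells of day 7 differ from g-Control cells of day 21 in both guide and day, which cannot be told apart. Their share was 2.98%, a log2 ratio of -0.69. Of 86 members 4 were higher and 24 lower, where 28.7% of all genes were higher and 35.0% lower. With the near-identical pair counted once, the log2 ratio was -0.66 and 19 members were lower. Members had a median ratio of -0.68 and all genes of -0.18. Counts were available for 15 of the 31 cells labelled g-Trps1 and day 7 in this batch. A single cell with a share of 13.4%, the only one with counts whose title begins 7T2, held 66811 of the pool's 575545 member reads. Rps27 took 3.44% of its gene reads and 25.8% of its member reads, followed by Rps3a3, Rpl36a and Rps23. Without that cell the log2 ratio of shares was -0.83. The Rps27 ratio, 0.51 with 1487 against 1043 CPM, became -0.70 after dropping the top cell from both pools.

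The titles divide some pools into series, and the share differed between series of 1 pool as much as between guides. In batch 3, 13 g-Sox9 cells titled 7S stood at 3.29% and 8 titled 7S2 at 0.898%. Against no-gRNA cells the log2 ratio was 2.2 with 7S cells only and 0.33 with 7S2 cells only. The g-Sox9+Trps1 to g-Sox9 ratio of -0.74 became 0.67 with 7S2 cells only, so its direction rests on the 7S cells. The dual cells titled 7ST and 7ST2 stood at 1.76% and 1.14%. In batch 5, no-gRNA cells titled AG stood at 0.472% and those titled 2AG at 0.923%. The g-Trps1 series 21T, 21T2 and 21T3 stood at 1.01%, 0.997% and 1.79%, so both of the lower g-Trps1 series lay near the 2AG cells. In batch 4, g-Sox9 cells titled 21S and 21S2 stood at 2.55% and 2.18%, both below the g-Control pool. The labels do not say what a title series is.

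Reads of microglia and macrophage markers were far fewer in the no-gRNA pools, which also had the lowest member shares of their batches. Microglia are the brain's resident immune cells, and the list held 20 genes, among them C1qa, Csf1r, Cx3cr1, Tmem119 and Trem2. Summed over the list, the no-gRNA pools of batches 1, 3 and 5 stood at 370, 294 and 298 CPM, and the pools with a guide at 6178 to 15225 CPM. In g-Control cells of batch 1, g-Sox9 and g-Sox9+Trps1 cells of batch 3 and g-Sox9 cells of batch 5, all 19 of the markers at the minimum were past 2-fold above no-gRNA cells. In g-Trps1 cells of batch 5 all 18 were. Of all genes, 37.2% were past 2-fold higher in the batch 1 comparison. In batch 3 the shares of all genes were 63.5% with g-Sox9 and 60.8% with g-Sox9+Trps1. In batch 5 they were 24.3% with g-Sox9 and 30.3% with g-Trps1. In the no-gRNA pool of batch 3 only 10 of the 20 had a read, and C1qb, C1qc, Cx3cr1, Cd68, Tmem119 and Trem2 were at 0. In batch 4, 11 of 20 were lower in g-Sox9 than in g-Control cells (6876 against 14143 CPM), where 40.7% of all genes were lower. In g-Sox9+Trps1 against g-Sox9 cells 13 were higher (15225 against 6876 CPM), where 32.8% of all genes were higher. The markers and the share did not go together in each comparison. In g-Sox9+Trps1 against g-Control cells of batch 1, 11 of 19 markers were lower (6178 against 11555 CPM) while the shares were nearly equal. Of all genes 63.8% were lower there, so that count of markers is near the count of genes at large. In the same guides of batch 2 at day 21 the summed markers were higher, at 14608 against 9596 CPM, while the log2 ratio of shares was -0.15. In-slice pools stood at 3760 to 31767 CPM. The part of these reads in the member shares was not tested.

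Among cells of 1 pool, those with more microglia marker reads tended to have the higher member share. Over the 11 pools of at least 10 cells, Spearman rho between a cell's member share and its summed microglia markers ran from 0.418 to 0.867. The same coefficient for neuron markers ran from -0.733 to 0.701, for genes read from -0.164 to 0.737 and for total reads from 0.022 to 0.50. Cells of a pool share their preparation, and both quantities are shares of the same reads. Few cells with a guide were low in the markers. In batch 5, 7 no-gRNA cells under 100 CPM had member shares of 0.179% to 1.34% with a median of 0.473%, and 5 g-Trps1 cells under 100 CPM had 0.374% to 1.09% with a median of 0.571%. The single such g-Sox9 cell had 0.550%, inside the no-gRNA range. In batch 1, 24 such no-gRNA cells had 0.0862% to 0.674%, and the single such g-Control cell, at 0.219%, lay inside that range. So did the 2 such g-Sox9+Trps1 cells, at 0.223% and 0.365%. In batch 3 the single such g-Sox9 cell had 1.21%, above the 3 such no-gRNA cells, which ran from 0.204% to 0.796%. The 3 such g-Sox9+Trps1 cells had 0.289%, 0.481% and 0.838%, so only the highest lay above that range.

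**Figure D4:**
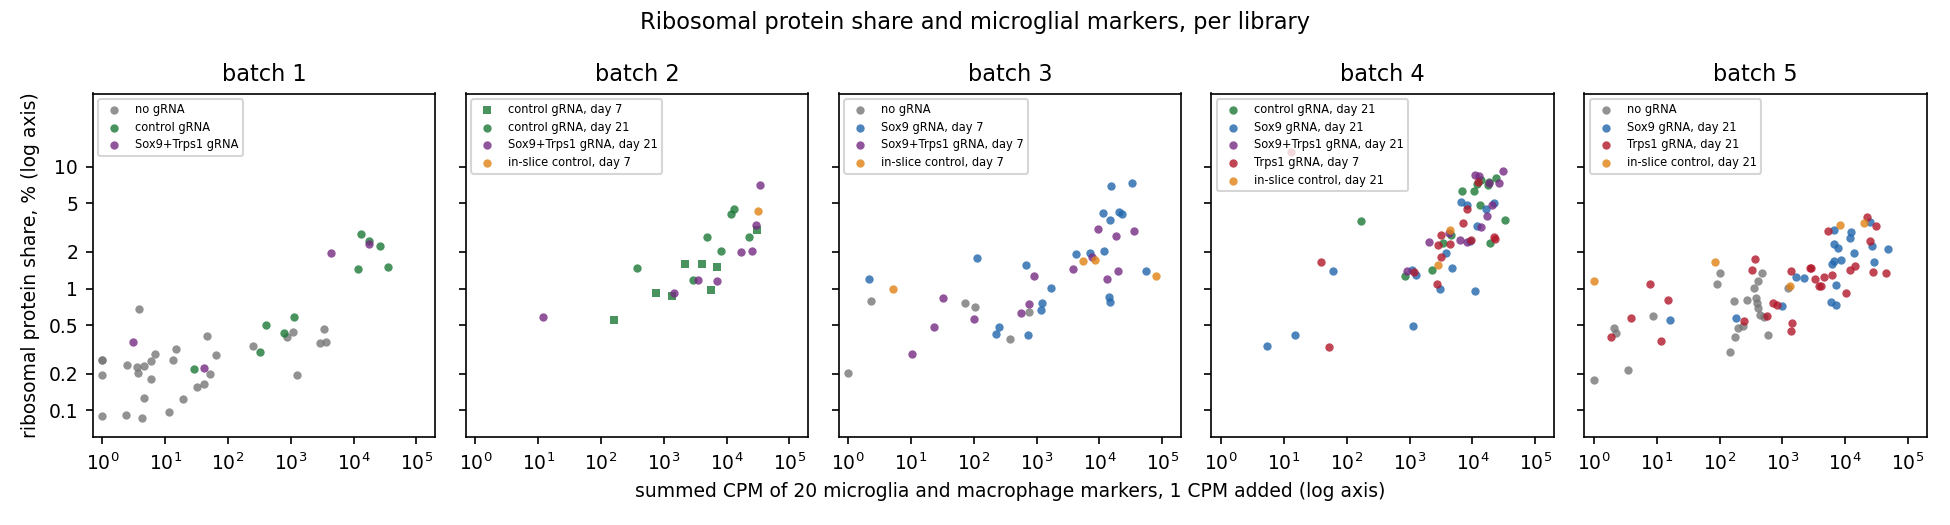
Member share of gene reads in each library, astrocytes and in-slice controls (percent, log axis), against its summed microglia and macrophage marker level (CPM, log axis), by batch and guide. No-gRNA cells lie at low marker levels, and cells with both a guide and under 100 CPM of markers are few; 1 g-Trps1 cell of batch 4 stands at 13.4% with low markers.

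Markers of other cell types also differed between pools. Oligodendrocyte markers, such as the myelin gene Mbp, were lower for 9 of the 9 at the minimum in g-Sox9 against g-Control cells of batch 4. They were higher for 9 of 10 in g-Sox9 against no-gRNA cells of batch 5. Both went the way of the member share, where 40.7% of all genes were lower and 24.3% higher. Single cells weighed on these pools: the highest g-Control cell of batch 4 stood at 55340 CPM beside a median of 759 CPM. The highest g-Sox9 cell of batch 5 stood at 60678 CPM, while the medians of g-Sox9 and no-gRNA cells were 1945 and 1845 CPM. Oligodendrocyte markers were also lower for 8 of 9 in g-Sox9+Trps1 against g-Control cells of batch 4, where the log2 ratio of shares was 0.16. Of all genes 36.9% were lower in that comparison. The part of oligodendrocyte reads in the member shares was not tested. All 5 erythroid markers were higher in the batch 4 g-Sox9 pool than in g-Control cells, beside 23.2% of all genes. Astrocyte markers were lower for 13 of 18 in g-Sox9+Trps1 against g-Control cells of batch 4, the pool with the highest member share. In batch 5 none of the 18 astrocyte markers passed 2-fold in g-Sox9 against no-gRNA cells. Fewer cells of a type and less RNA per cell cannot be told apart in a pipetted sample that can hold neighbouring material.

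In-slice libraries held member reads at shares inside the range of astrocytes. The 12 libraries ran from 0.990% to 4.30% with a median of 1.67%. The single in-slice library of batch 2, at 4.30%, lay below only 2 of 23 astrocytes. Those of batch 3 ran from 0.990% to 1.73% and lay below 14 to 22 of 41 astrocytes. The pair in batch 4 stood at 1.57% and 3.05%, below 44 and 27 of 59. In batch 5 the 5 libraries stood at 1.05%, 1.16%, 1.65%, 3.31% and 3.48%, below 38, 33, 17, 2 and 2 of 74. A member share of this size was thus also present in libraries labelled as holding no cell, and the in-slice share of batch 5, 2.24% pooled, lay above the g-Sox9 share of 1.74%.

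Depth altered how many members a cell showed. In batch 5 the median cell had reads on 71 members without a gRNA, 80 with g-Sox9 and 77 with g-Trps1. Thinned to 100000 reads per cell the medians were 60, 74 and 68.5. In batch 1 they were 21 in no-gRNA and 55 in g-Control cells after thinning, and 30 and 65.5 before. In batch 4 they were 77 in g-Control, 70 in g-Sox9 and 79 in g-Sox9+Trps1 cells after thinning. The order of the pools within each of these batches was unchanged by thinning except in batch 4, where g-Control cells led with 84 before thinning and g-Sox9+Trps1 cells, at 83 before, led after it.

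Of the P-stalk genes, Rplp0 showed the widest separation in batch 5. In no-gRNA cells Rplp0 ran from 0 through a median of 157 to 493.3 CPM and was read in 16 of 23. In g-Sox9 cells it ran from 0 through 1009 to 2644 CPM and was read in 19 of 21. In g-Trps1 cells it ran from 0 through 223 to 3763 CPM and was read in 24 of 30. Pooled levels of Rplp0 were 191, 1047 and 438 CPM, and the g-Sox9 to no-gRNA log2 ratio was 2.42. Most g-Sox9 cells were high, and each group held cells with none. Rplp1 stood at 276, 700 and 409 CPM in these pools and Rplp2, its partner on the stalk, at 77.4, 191 and 174 CPM. In batch 4 Rplp0 stood at 2349 CPM in g-Control, 817 in g-Sox9 and 2063 in g-Sox9+Trps1 cells, Rplp1 at 1725, 651 and 2027, and Rplp2 at 687, 402 and 663. In the g-Sox9+Trps1 cells of batch 3 Rplp1 departed from Rplp0. From no-gRNA to g-Sox9+Trps1 cells Rplp1 went from 364 to 269 CPM and Rplp0 from 144 to 807 CPM. In g-Sox9 cells of that batch both were higher than in no-gRNA cells, at log2 ratios of 0.88 for Rplp1 and 2.84 for Rplp0.

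Rpl5 and Rpl11, which carry the 5S RNA and bind Mdm2, had lower pooled levels in no-gRNA than in guided cells of batch 5 and in g-Sox9 than in g-Control cells of batch 4. Rpl5 stood at 36.4 CPM in no-gRNA, 94.4 in g-Sox9 and 127 in g-Trps1 cells of batch 5, with highest cells at 140, 422 and 517 CPM. Rpl11 stood at 59.2, 131 and 120 CPM in the same pools. In batch 4 Rpl5 stood at 350 CPM in g-Control, 160 in g-Sox9 and 330 in g-Sox9+Trps1 cells, and Rpl11 at 405, 198 and 585. Rpl5 did not keep the order of the shares throughout, being higher in g-Trps1 than in g-Sox9 cells of batch 5 and lower in dual than in g-Control cells of batch 4. Cells overlapped in each case, with the lowest g-Control cell at 4.41 CPM of Rpl5. Mdm2 itself, the ligase that holds p53 down, stood at 25.1 CPM in g-Control, 12.8 in g-Sox9 and 68.6 in g-Sox9+Trps1 cells of batch 4. The p53 target Cdkn1a stood at 188, 24.8 and 72.0 CPM there. Of the 8 p53 surveillance genes, 7 were at the minimum in each of these contrasts, and 4 were lower and 0 higher in g-Sox9 against g-Control cells, beside the 40.7% of all genes given above.

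Rps6, the S6 kinase substrate with a long TOP run, stood at 60.3 CPM in no-gRNA, 167 in g-Sox9 and 112 in g-Trps1 cells of batch 5. Its cells ran from 0 to 163, 0 to 486 and 0 to 485 CPM. In batch 4 it stood at 362 CPM in g-Control, 205 in g-Sox9 and 420 in g-Sox9+Trps1 cells. Rps6 was read in all 13 dual cells, at 122 CPM or more. Rpsa, which sits at the small subunit's exit side and also serves as a laminin receptor, did not follow the other members against no-gRNA cells in batches 3 and 5. In batch 1 it was past 2-fold higher in g-Control than in no-gRNA cells, at 26.1 against 9.92 CPM and a log2 ratio of 1.06. Rpsa stood at 159 CPM in no-gRNA, 139 in g-Sox9 and 217 in g-Trps1 cells of batch 5. In batch 3 it stood at 415 CPM in no-gRNA, 338 in g-Sox9 and 179 in g-Sox9+Trps1 cells, and was the leading member of the no-gRNA pool with 5.80% of member reads. Only 4 of the 6 no-gRNA cells held Rpsa reads, with a median of 112 and a highest of 745 CPM, so this level rests on few cells.

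Members at the extremes were ranked by the log2 ratio left after dropping, for each gene, the highest cell of each pool (the trimmed ratio), among members at 20 CPM or more that were read in 40% or more of the cells of the higher pool and had the same sign with those cells. In g-Sox9 against g-Control cells of batch 4 the lowest were Rpl29 and Rpl7, a large-subunit protein near the 5S RNA. Rpl29 was read in 13 of 15 g-Control cells, from 0 through a median of 140 to 608 CPM, and in 7 of 16 g-Sox9 cells, from 0 through 0 to 313 CPM. Its pooled levels were 252 and 50.1 CPM, a log2 ratio of -2.22 and a trimmed ratio of -2.67. Rpl7 stood at 790 CPM in g-Control and 199 in g-Sox9 cells, a log2 ratio of -1.96 and a trimmed ratio of -2.24, with medians of 764 and 89.3 CPM. In g-Sox9+Trps1 cells Rpl7 stood at 947 CPM and was read in 13 of 13. Rps26, at the mRNA exit channel, stood at 680.8 CPM in the dual cells and 184 in g-Sox9 cells, a log2 ratio of 1.86 and a trimmed ratio of 2.128.

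Rpl29 was also among the highest in batch 5. It was read in 12 of 23 no-gRNA cells, 14 of 21 g-Sox9 cells and 19 of 30 g-Trps1 cells. Its medians were 1.25, 36.6 and 24.0 CPM, and its highest cells 52.6, 283 and 231 CPM. The pooled levels of 6.36, 55.7 and 50.1 CPM gave log2 ratios to no-gRNA cells of 2.42 and 2.28, and trimmed ratios of 2.39 and 2.40. At the low end stood Rpl22l1 and Rpl31 for g-Sox9, at trimmed ratios of -0.46 and -0.22, and Rpl36a and Rpl22l1 for g-Trps1, at -0.93 and -0.82, none of them past 2-fold. Between the g-Trps1 and g-Sox9 pools, Rplp0 and Rpl36a had the lowest trimmed ratios at -1.65 and -1.39, and Rpl7l1 and Rpl31 the highest at 1.604 and 0.72.

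In batch 3, Rpl9 was low by the trimmed ratio in g-Sox9 against no-gRNA cells, at -0.25. In g-Sox9+Trps1 cells Rpl9 and Rps12 were lowest by that ratio at -1.09 and -0.84, and Rpl15 was among the highest at 4.52. Rpl15 stood at 125 CPM in the dual and 4.85 CPM in the no-gRNA cells, a log2 ratio of 3.73 with all cells. Only 1 of the 6 no-gRNA cells held Rpl15, so its trimmed ratio has no reference reads and rests on the 5 CPM added. Between g-Sox9+Trps1 and g-Sox9 cells Rpl23 was lowest, at 73.3 against 224 CPM and a trimmed ratio of -1.66, followed by Rpl7l1 at -1.59. Rpl22l1 was highest at 0.43. In batch 1, Rps2 stood highest in g-Control against no-gRNA cells, with 325 against 6.68 CPM and a trimmed ratio of 4.55, followed by Rpl35a at 3.90. With all cells the Rpl35a ratio was 2.96, and 4 of 31 no-gRNA cells held it. Of the 4 dual cells of batch 1 the highest cell decided the value of Rpl8, which stood at -1.73 against g-Control and had a trimmed ratio of -6.51.

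In batch 2, day 21 g-Control cells had the highest trimmed ratios to day 7 for Rpl12 and Rpl22, at 2.199 and 2.16, and the lowest for Rpl10a and Rpl6, at -1.17 and -0.70. With all cells Rpl10a stood at -0.89, not past 2-fold. Dual against g-Control cells of day 21 had the highest trimmed ratios for Rpl7l1 and Rpl7a, at 3.40 and 2.32, and the lowest for Rpl22 and Rpl7, at -2.22 and -2.21. With all cells these were 1.77 for Rpl7l1, 0.58 for Rpl7a, -2.76 for Rpl22 and -1.12 for Rpl7, so Rpl7a was not past 2-fold. Rpl7l1 was read in 5 of 8 dual and 2 of 7 g-Control cells. In batch 4 the dual cells had the highest trimmed ratios to g-Control for Rps27l and Rpl13a, at 1.32 and 0.94, and the lowest for Rpl22 and Rpl29, at -0.68 and -0.61. The g-Trps1 cells of day 7 had the lowest for Rpl29 and Rpl18, at -2.47 and -2.13, and the highest for Rpl31 and Rps27l, at 0.38 and 0.26.

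**Figure D5:**
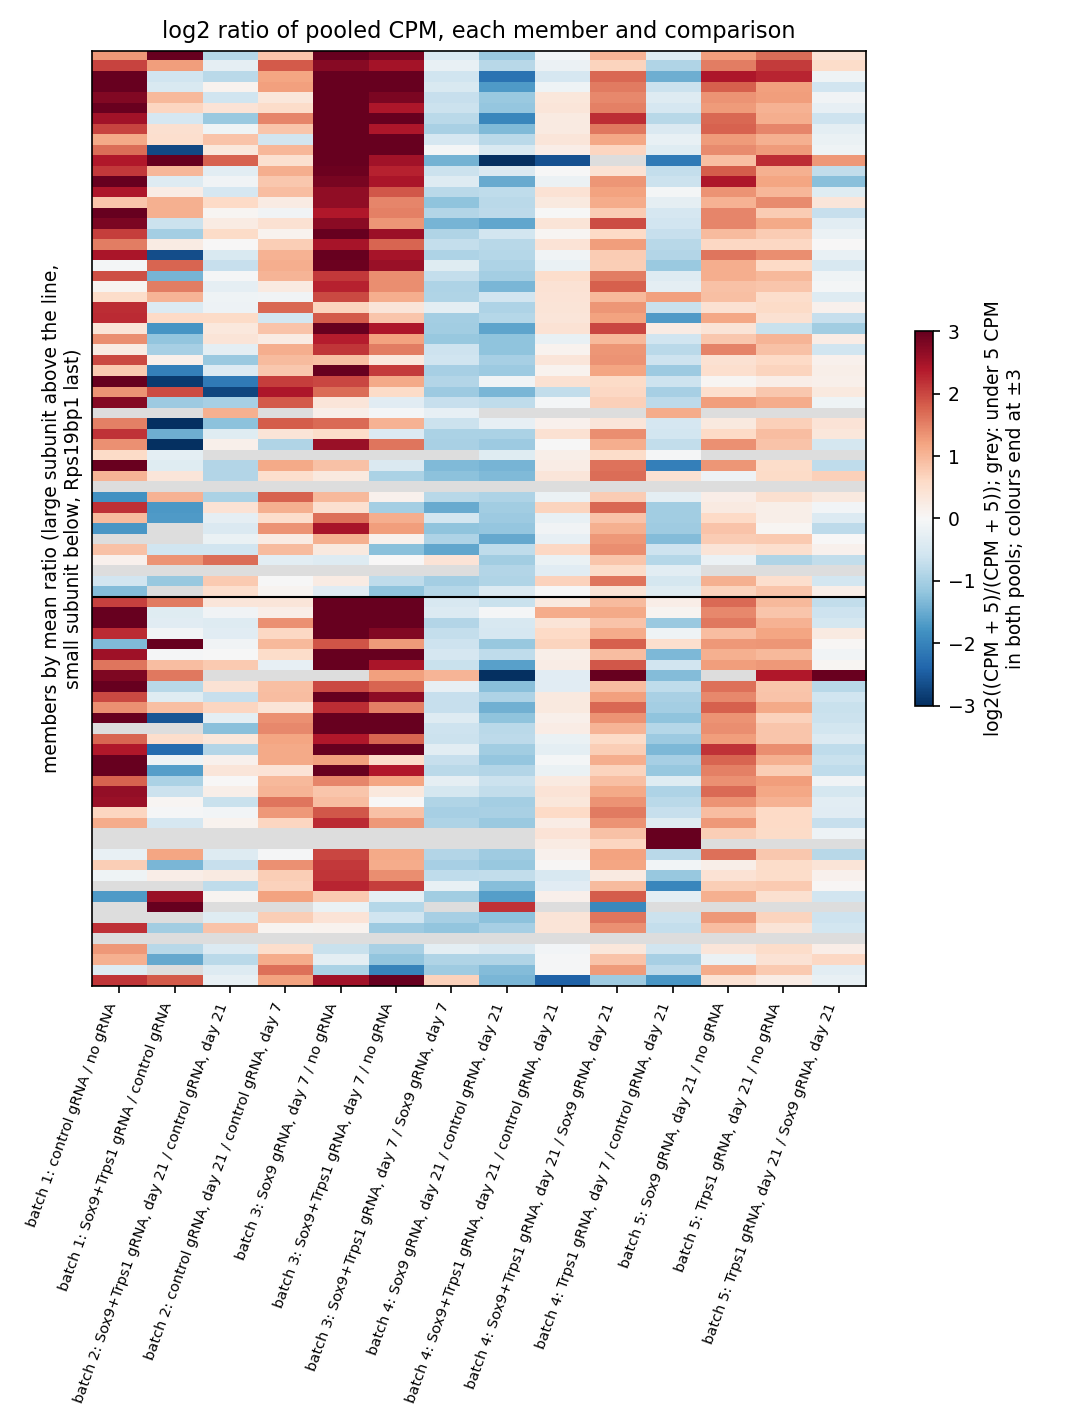
Log2 ratio of pooled CPM (5 CPM added) for each member (rows, by subunit and then by mean ratio) in each of the 14 comparisons (columns); red is higher and blue lower in the first-named pool, and grey marks members under 5 CPM in both pools. Columns against no-gRNA cells are mostly red. The g-Sox9 against g-Control column of batch 4 is mostly blue, with 42 of 84 members past 2-fold lower beside 40.7% of all genes.

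Paralogues did not always move with their partners. Rpl22 is a large-subunit protein that represses its own paralogue Rpl22l1 by binding its transcript. In batch 5 Rpl22 stood at 40.2 CPM in no-gRNA, 59.5 in g-Sox9 and 73.9 in g-Trps1 cells, and Rpl22l1 at 59.6, 52.4 and 29.5 CPM. In batch 2 at day 21, Rpl22 stood at 171 CPM in g-Control and 21.0 in g-Sox9+Trps1 cells, and Rpl22l1 at 29.4 and 104.6 CPM. Rpl22 was read in 4 of 7 and 3 of 8 of those cells, and its highest cells stood at 712 and 77.2 CPM, so its pooled levels rest on few cells. In batch 4 both were lower in g-Sox9 than in g-Control cells, Rpl22 at 115 against 304 CPM and Rpl22l1 at 52.0 against 113 CPM. The opposite course of the pair in batches 2 and 5 was thus not present in batch 4.

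Rps27 and Rps27l encode near-identical proteins, and Rps27l is a p53 target. In batch 4 Rps27 stood at 1043 CPM in g-Control, 473 in g-Sox9 and 1664 in g-Sox9+Trps1 cells. Rps27l stood at 64.0, 62.5 and 144 CPM, and was read in 8 of 15, 8 of 16 and 12 of 13 cells. The log2 ratio of g-Sox9 to g-Control was -1.13 for Rps27 and -0.03 for Rps27l. In batch 5 both were higher than in no-gRNA cells with g-Sox9, at 1.29 for Rps27 and 1.44 for Rps27l. In batch 1 Rps27 stood at 0.271 CPM (3 reads) in g-Control, 8.13 in no-gRNA and 132 in g-Sox9+Trps1 cells, and was read in 2 of 10, 4 of 31 and 2 of 4 cells. Rps27l stood at 157 CPM in the g-Control and 11.7 in the no-gRNA cells of that batch.

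Rpl7 and Rpl7l1 differed in how many cells held them. Rpl7 was read in 16 of 23, 18 of 21 and 25 of 30 cells of the no-gRNA, g-Sox9 and g-Trps1 pools of batch 5, and Rpl7l1 in 6, 6 and 15. Rpl7l1, which takes part in assembling the large subunit, stood at 14.1, 30.4 and 83 CPM there, with a median cell at or near 0 in each. Its batch 4 levels were 53.7 CPM in g-Control, 0.80 in g-Sox9 and 4.66 in g-Sox9+Trps1 cells, but only 5 of 15 g-Control cells held it. Its g-Sox9 to g-Control log2 ratio of -3.34 became -1.17 without the highest cell of each pool.

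Genes that work with the ribosome gave a background for the members. Fau, which encodes a small-subunit protein fused to a ubiquitin-like part and falls outside the name pattern, stood at 129 CPM in no-gRNA, 430 in g-Sox9 and 310 in g-Trps1 cells of batch 5. In batch 4 it stood at 1040 CPM in g-Control, 496 in g-Sox9 and 1465 in g-Sox9+Trps1 cells. Rack1, the scaffold on the small subunit, stood at 284, 339 and 371 CPM in these batch 4 pools, so it was not lower with g-Sox9. Eef1a1, the elongation factor that brings tRNAs and itself a TOP mRNA, stood at 537 CPM in no-gRNA, 3182 in g-Sox9 and 1445 in g-Trps1 cells of batch 5, and at 6227, 2871 and 5758 CPM in the g-Control, g-Sox9 and g-Sox9+Trps1 cells of batch 4. Eef2, the translocation factor, stood at 573, 545 and 682 CPM in those batch 4 pools.

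Of 20 translation factors and other TOP mRNAs, 4 were higher and 2 lower in g-Sox9 against no-gRNA cells of batch 5, with a median log2 ratio of 0.65 beside 1.16 for the members and 0.07 for all genes, of which 24.3% were higher and 20.5% lower. In g-Sox9 against g-Control cells of batch 4, 1 was higher and 8 lower, with a median of -0.78 beside -0.59 for all genes, of which 23.2% were higher and 40.7% lower. The counts that follow are to be read against the same shares of all genes. Of 25 initiation factors, 2 were higher and 4 lower in the first comparison (median 0.15) and 3 higher and 12 lower in the second (median -0.78). Of 40 ribosome biogenesis genes 39 and 37 were at the minimum, and 13 were higher and 7 lower in the first (median 0.21) and 9 higher and 11 lower in the second (median -0.19). Of 21 growth regulators of these mRNAs, in the mTORC1 and Myc pathways, 19 were at the minimum in each; 2 were higher and 4 lower in the first (median -0.40) and 3 higher and 10 lower in the second (median -1.11).

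Mitochondrial ribosomal proteins, which build the separate ribosome of mitochondria, did not share the members' course in batch 5. Of 76 at the minimum, 12 were higher and 11 lower in g-Sox9 against no-gRNA cells, with a median log2 ratio of -0.16, where 24.3% of all genes were higher and 20.5% lower at a median of 0.07. In g-Trps1 cells 18 of 77 were higher and 5 lower, with a median of 0.25 beside 0.82 for the cytosolic members and 0.41 for all genes, of which 30.3% were higher and 14.3% lower. In g-Sox9 against g-Control cells of batch 4, 14 of 70 were higher and 24 lower, with a median of -0.30 beside -1.0 for the cytosolic members and -0.59 for all genes, of which 23.2% were higher and 40.7% lower. In batch 3 their median against no-gRNA cells was 1.98 with g-Sox9 and 1.84 with g-Sox9+Trps1, beside cytosolic medians of 2.25 and 1.38 and all-gene medians of 1.43 and 1.38.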

How the data were processed

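The authors deposited raw counts per gene and cell, 1 table per batch, with Ensembl identifiers. STAR 2.6.0a, RSEM 1.3.0 and builds GRCm38 and mm10 are named in the submitters' processing notes, without the table they apply to. Identifiers were matched to symbols through a table of mouse gene names. The 5 tables held 55487, 23787, 24304, 34636 and 27849 gene rows in batch order, of which 55141, 23747, 24265, 34531 and 27786 matched. Exon lengths came from the GENCODE annotation of GRCm38. Rows that name no gene (75.6% of counts in batch 1, 22.3% in batch 2 and under 0.38% in the others) were left out of totals, and 0 columns of values were unused. Labels for 35 further batch 4 cells had no column and were not analysed here.

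Counts were summed per guide, day and batch and scaled to CPM with Python 3.11.15, numpy 2.4.6, pandas 2.3.3 and scipy 1.17.1. Log2 ratios used 5 CPM added and a minimum of 5 CPM in the higher pool, with 1 as the limit for a call. Intervals are exact binomial or Poisson at 95% and cover counting error only, since PCR reads without molecular identifiers are not independent molecules. The members and gene lists were chosen with earlier results of these data known. Members named are the 5 highest and lowest per kilobase, up to 2 each way per comparison after leaving out the top cell (20 CPM and 40% of cells), paralogue pairs, and members with known extra roles. Some members that the rule named are not reported here. The scripts were tested on simulated data. Alternatives were the mean or median cell, other totals, pseudocounts 1 and 10, no minimum, 1 cell left out at a time and, chosen after seeing the data, 2 libraries with nearly the same counts entered as their mean.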

Additional observations from a re-analysis of the deposited data

Results flagged for a closer look

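In the g-Control cells of batch 2 at day 7, 1 cell had a member share of 3.02%, and its gap to the nearest of the other 7 cells was large for the range of the group. In the g-Sox9+Trps1 cells of batch 2 at day 21, 1 cell had a share of 7.06% and stood apart from the other 7 in the same way. Of 8 groups with 4 to 10 libraries, 2 held such a library. The rate of about 1 in 20 groups flagged by chance assumes normally distributed values. Shares between cells were skewed, with a median of 1.59% and a highest of 7.06% in the g-Sox9+Trps1 group. The 2 flags therefore cannot be set against that rate.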

How the results depend on the processing

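With 1 pool per group there was no threshold of a test to cross, and an alternative counts as moving a share ratio when it leaves the narrow counting interval. Direction held in each of the 14 comparisons of summed share under each alternative run, with these exceptions, whose cause was not tested. Batch 1 g-Sox9+Trps1 against g-Control cells turned with the mean cell, with 1 cell left out and with 1 gene per protein. Batch 2 g-Sox9+Trps1 against g-Control cells turned with 1 cell left out and relative to all genes, and batch 3 g-Sox9+Trps1 against no-gRNA cells turned relative to all genes. Restricting title series turned batch 3 g-Sox9+Trps1 against g-Sox9 cells (7S2) and batch 5 g-Trps1 against g-Sox9 cells (21T3). The median cell turned batch 4 g-Sox9+Trps1 against g-Control cells. The log2 ratios of summed share follow, each after its reported value in brackets. Spike-in scaling and counting a near-identical pair once were chosen after seeing the data.

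Batch 1 g-Control against no-gRNA cells (2.38) gave 2.28 by mean cell, 2.09 by median cell, 2.18 to 2.53 with 1 cell left out, 2.40 without mitochondrial genes, 2.115 relative to all genes and 2.34 with pseudogene rows. Batch 1 g-Sox9+Trps1 against g-Control cells (0.006) gave -0.031 by mean cell, 0.19 by median cell, -0.51 to 0.48 with 1 cell left out, 1.65 relative to all genes and -0.052 with 1 gene per protein. Batch 2 g-Sox9+Trps1 against g-Control cells at day 21 (-0.15) gave -0.21 by mean cell, -0.73 by median cell, -0.68 to 0.050 with 1 cell left out, 0.22 relative to all genes, -0.15 with 1 gene per protein and -0.10 per spike-in read. Batch 2 g-Control cells at day 21 against day 7 (0.85) gave 0.95 by mean cell, 1.09 by median cell, 0.66 to 1.17 with 1 cell left out, 0.90 without mitochondrial genes, 1.27 relative to all genes and 0.11 per spike-in read. Batch 3 g-Sox9 against no-gRNA cells (1.74) gave 1.97 by mean cell, 1.21 by median cell, 1.57 to 1.89 with 1 cell left out, 1.78 without mitochondrial genes, 0.31 relative to all genes, 1.71 with cells of 100000 reads or more, 2.2 with only 7S cells and 0.33 with only 7S2 cells. Batch 3 g-Sox9+Trps1 against no-gRNA cells (1.0) gave 1.25 by mean cell, 0.87 by median cell, 0.86 to 1.15 with 1 cell left out, -0.38 relative to all genes, 0.97 with cells of 100000 reads or more, 1.303 with only 7ST cells and 0.67 with only 7ST2 cells. Batch 3 g-Sox9+Trps1 against g-Sox9 cells (-0.74) gave -0.71 by mean cell, -0.34 by median cell, -0.88 to -0.57 with 1 cell left out, -0.77 without mitochondrial genes, -0.57 relative to all genes, -0.44 with only 7ST cells, -1.07 with only 7ST2 cells, -1.20 with only 7S cells and 0.67 with only 7S2 cells. Batch 4 g-Sox9 against g-Control cells (-1.05) gave -1.10 by mean cell, -1.74 by median cell, -1.20 to -0.91 with 1 cell left out, -1.02 without mitochondrial genes, -1.06 with totals over shared rows, -0.46 relative to all genes, -0.91 with only 21S cells and -1.14 with only 21S2 cells. Batch 4 g-Sox9+Trps1 against g-Control cells (0.16) gave 0.036 by mean cell, -0.29 by median cell, 0.022 to 0.30 with 1 cell left out, 0.23 without mitochondrial genes, 0.14 with totals over shared rows and 0.59 relative to all genes. Batch 4 g-Sox9+Trps1 against g-Sox9 cells (1.21) gave 1.14 by mean cell, 1.45 by median cell, 1.07 to 1.36 with 1 cell left out, 1.24 without mitochondrial genes, 1.11 relative to all genes, 1.07 with only 21S cells and 1.29 with only 21S2 cells. Batch 4 g-Trps1 (day 7) against g-Control cells (-0.69) gave -0.53 by mean cell, -0.94 by median cell, -0.83 to -0.55 with 1 cell left out, -0.63 without mitochondrial genes, -0.70 with totals over shared rows, -0.51 relative to all genes, -0.70 with 1 gene per protein, -0.64 with pseudogene rows, -0.83 with only 7T cells and -0.66 with the near-identical pair counted once. Batch 5 g-Sox9 against no-gRNA cells (1.27) gave 1.32 by mean cell, 1.48 by median cell, 1.20 to 1.34 with 1 cell left out, 1.20 relative to all genes, 1.25 with pseudogene rows, 0.91 with only 2AG cells, 1.88 with only AG cells and 1.25 with the near-identical pair counted once. Batch 5 g-Trps1 against no-gRNA cells (0.91) gave 1.02 by median cell, 0.80 to 0.98 with 1 cell left out, 0.50 relative to all genes, 0.89 with pseudogene rows, 0.49 with only 21T cells, 0.47 with only 21T2 cells, 1.32 with only 21T3 cells, 0.55 with only 2AG cells, 1.52 with only AG cells and 0.89 with the near-identical pair counted once. Batch 5 g-Trps1 against g-Sox9 cells (-0.36) gave -0.40 by mean cell, -0.46 by median cell, -0.47 to -0.29 with 1 cell left out, -0.68 relative to all genes, -0.78 with only 21T cells, -0.80 with only 21T2 cells and 0.048 with only 21T3 cells.

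Counts of members past 2-fold depended most on centring. Relative to the median of all genes, higher members went from 18 to 51 and lower ones from 22 to 5 in batch 1 g-Sox9+Trps1 against g-Control cells, from 32 to 51 higher in batch 2 day 21 against day 7, from 60 to 36 higher in batch 3 g-Sox9 and from 56 to 28 higher in batch 3 g-Sox9+Trps1 against no-gRNA cells, from 18 to 9 lower between those guides, from 42 to 7 lower in batch 4 g-Sox9 and from 24 to 11 lower in batch 4 g-Trps1 against g-Control cells, and in batch 5 from 29 to 7 higher in g-Trps1 against no-gRNA cells and from 2 to 14 lower against g-Sox9 cells. Without the highest cell per gene, the batch 1 dual comparison went from 18 to 6 higher and from 22 to 39 lower. The batch 2 dual comparison went from 7 to 16 lower. With all cells, 22.3% of all genes were higher and 63.8% lower in the batch 1 comparison, and 41.7% were lower in that of batch 2. Shares of all genes without the highest cells are not given, so these counts are not read as a result about the members. Depth limits the batch 3 no-gRNA pool most. No paired analysis was possible because the labels give cell numbers that tie no cell of 1 group to a cell of another, and each pool entered without a test.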
